A study of Drosophila melanogaster with 2 samples.

Results

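The glia described here are cells of Drosophila larval brains that the depositors' metadata table annotates AST, ENS or CTX, names read here as astrocyte-like, ensheathing and cortex glia. They were chosen by that annotation alone, and they number 180 of the 5056 listed cells. AST holds 39 of them, ENS 71 and CTX 70. They are compared with each other, and together with the 3413 cells whose annotation is only a cluster number, leaving out clusters 1 and 31. Brains of larvae in the third instar were dissociated and profiled as single cells with 3 prime droplet chemistry in 2 libraries. The MeOH library was fixed with methanol and pooled cells of 7 inbred lines of the Drosophila Genetic Reference Panel (DGRP), DGRP-761, DGRP-639, DGRP-502, DGRP-409, DGRP-382, DGRP-136 and DGRP-45. The fresh library came from unfixed cells of a hybrid based on the line DGRP-551. Strain and fixation therefore differ together and cannot be told apart, and each group is 1 library. The 2 groups follow the fixation field, because the protocols given for both samples mention methanol.

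Glia of the fly brain support neurons, clear transmitters and shape the tissue around synapses and cell bodies. Nearly all of them express the homeodomain factor repo. Astrocyte-like glia send processes into the synaptic neuropil, where the glutamate transporter Eaat1, the GABA transporter Gat and the glutamine synthetase Gs2 take up and recycle transmitters, and the leucine-rich repeat protein alrm is their usual driver gene. Ensheathing glia wrap the neuropil and engulf debris through the receptor drpr. Cortex glia enclose neuronal cell bodies and neuroblasts, and are known for the immunoglobulin protein wrapper, the exchanger zyd and the cytochrome Cyp4g15.

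The glia were 3.79% of listed MeOH cells (103 of 2715, exact Clopper-Pearson 95% interval 3.11 to 4.58) and 3.29% of listed fresh cells (77 of 2341, 2.60 to 4.09). AST made up 20 MeOH and 19 fresh cells, and ENS 36 MeOH and 35 fresh cells. CTX made up 47 MeOH cells, or 1.73% (1.27 to 2.30), and 23 fresh cells, or 0.982% (0.624 to 1.47). The sums over glia came to 624317 UMIs in the MeOH library and 830112 in the fresh library, where a UMI (unique molecular identifier) marks 1 captured transcript. The numbered clusters gave 7198994 MeOH and 13421970 fresh UMIs. Median depth was 7953.5 MeOH and 8888 fresh UMIs per AST cell, 3064.5 and 7711 per ENS cell, 5096 and 11181 per CTX cell, and 3313 and 6560.5 per numbered cell. Thinned to 2000 UMIs, a CTX cell showed a median of 790 genes in the MeOH library and 795 in the fresh library, against 920 and 923 in numbered cells. Transcripts of ribosomal proteins took 30.0% of the glial UMIs in the MeOH library and 32.4% in the fresh library, against 22.0% and 23.0% in the numbered clusters. No glial barcode occurred in the other library, and 12 barcodes of any kind were shared. In all that follows, counts were summed per label and library and scaled to CPM, that is UMIs of a gene divided by all UMIs of the label and multiplied by 1000000, with exact Poisson 95% intervals. Counting error alone is in these intervals, and the spread between brains is not. The labels were given to these same cells, and how is not given in the sources used here, so differences between labels are descriptions and carry no test.

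AST and ENS lie in a single deposited cluster at each of the 5 clustering resolutions, cluster 15 at resolution 2, so the table separates them by something other than its cluster columns. CTX is cluster 24 at resolution 2.

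**Figure D1:**
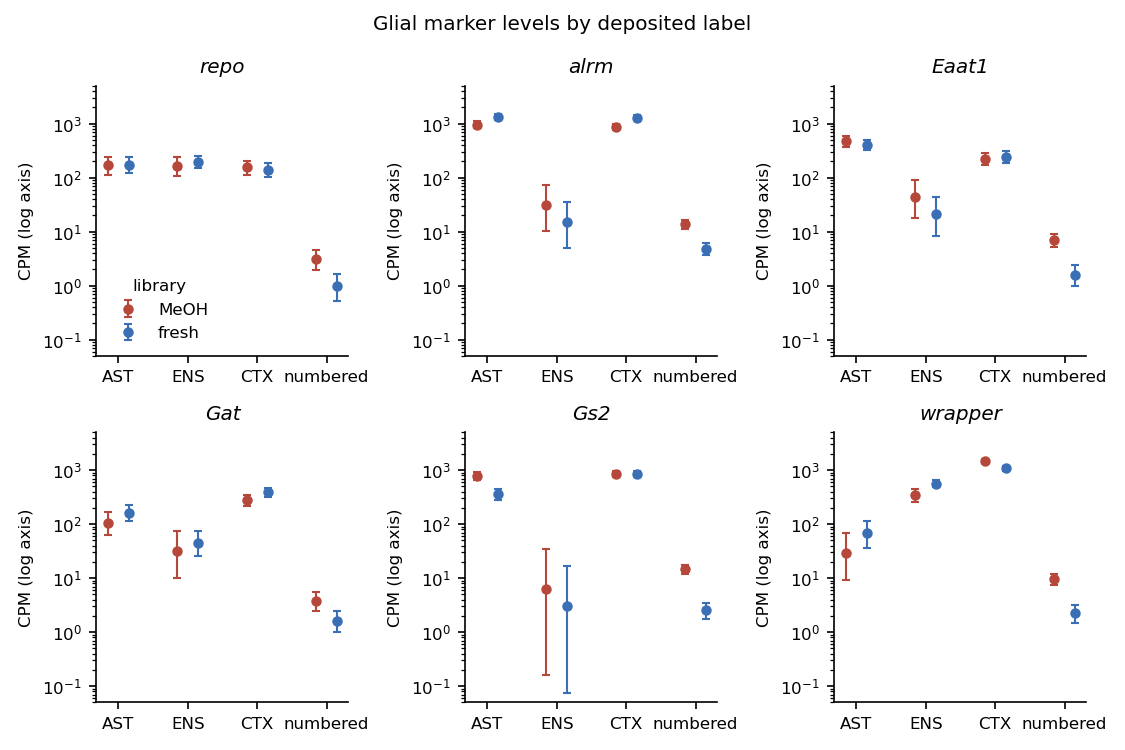
Level of 6 glial marker genes in CPM on a log axis, by deposited label (AST, ENS, CTX and the numbered clusters), with the MeOH library at the left and the fresh library at the right of each pair. Points are summed counts and bars exact Poisson 95% intervals; repo lies between 141 and 196 CPM in the 3 glial labels of both libraries, while alrm, Eaat1, Gat and Gs2 are lower in ENS than in AST and CTX.

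The pan-glial marker repo (FBgn0011701, 3R:18236192-18239602 of dm6, forward strand) was the core marker at the most even level in the 3 labels. AST cells had 169 CPM in the MeOH library (113 to 242) and 174 CPM in the fresh library (122 to 241). ENS cells had 165 and 196 CPM, and CTX cells 156 and 141 CPM. The intervals overlap for repo, so no order among the labels could be detected at this depth. The numbered clusters had 3.06 CPM of repo in the MeOH library and 0.969 CPM in the fresh library. At 2000 UMIs per cell, 30.1% of MeOH glia and 32.5% of fresh glia held a repo UMI, against 0.701% and 0.118% of numbered cells. That last pair of shares gives the level of repo in cells that should lack it.

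The astrocyte gene alrm (FBgn0039332, 3R:25381065-25382781, reverse strand) divided the labels. It had 965 CPM in MeOH and 1330.3 CPM in fresh AST cells, 31.7 and 15.1 CPM in ENS cells, and 869 and 1304 CPM in CTX cells. The numbered clusters had 13.8 and 4.84 CPM of alrm. AST and CTX were thus both far above ENS in each library, and in CTX the level came from 17 of 47 MeOH and 14 of 23 fresh cells.

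Transmitter genes were lower in ENS than in AST and CTX. Gs2 (FBgn0001145, X:11422832-11430197) had 779 CPM in MeOH and 363 CPM in fresh AST cells, 845 and 838 CPM in CTX cells, and a single UMI in ENS cells of each library. The MeOH value of CTX rested on 1 cell, which held 189 of 249 UMIs of Gs2, and CTX had 218 CPM without it, below AST. Eaat1 (FBgn0026439, 2L:9333567-9341925) had 471 and 402 CPM in AST cells, 44.4 and 21.1 CPM in ENS cells, and 224 and 244 CPM in CTX cells. Gat (FBgn0039915, 4:629691-635350) was highest in CTX, at 278 CPM in the MeOH library and 388 CPM in the fresh library. AST cells had 105 and 164 CPM of Gat, and ENS cells 31.7 and 45.2 CPM. In CTX 1 cell held 32.9% of the MeOH UMIs of Gat and 1 cell 48.7% of the fresh ones, and CTX had 192 and 215 CPM without them. Of these genes Eaat1 was higher in AST than in CTX with separate intervals in both libraries.

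The cortex gene wrapper (FBgn0025878, 2R:22379637-22382675) ran in another order. CTX cells had 1473 CPM in the MeOH library and 1078 CPM in the fresh library, ENS cells 342 and 566 CPM, and AST cells 29.1 and 67.7 CPM. In ENS the sum rested on few cells. A wrapper UMI was found in 8 of 36 MeOH and 13 of 35 fresh ENS cells, and 1 cell held 48.1% of the MeOH and 58.0% of the fresh wrapper UMIs.

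Checked against lists of markers, AST cells held the astrocyte genes alrm, Eaat1 and Gs2, although e and wun2 of the same list of 10 had 2 UMIs or fewer there. By the rule given below, Eaat1 was the 1 gene of the list called higher in AST than in ENS and CTX together. In CTX 4 were called higher than in AST and ENS together, namely Gat, GLaz, CG31235 and Gs2, the last in MeOH through the cell named above. The list summed to 5091 CPM in MeOH and 2917 CPM in fresh AST cells, 1198 and 554 CPM in ENS cells, and 4298 and 4373 CPM in CTX cells. AST was above CTX in the MeOH library and below it in the fresh library. The numbered clusters had more, at 16365 and 10762 CPM. The list holds pros, also on the neuroblast list, which was called lower in glia than in numbered clusters by the rule given below. The sum alone is therefore no measure of astrocyte identity, and the part of pros in it was not tested. ENS cells went against their name. Of 5 genes listed for ensheathing glia, Eaat2 had 0 UMIs in MeOH and 1 UMI in fresh ENS cells, while the numbered clusters had 114.6 and 97.5 CPM of Eaat2. CG9657 had 12.7 and 9.03 CPM in ENS cells, against 115.4 and 54.9 CPM in CTX cells. The engulfment receptor drpr had 82.4 and 39.1 CPM in ENS cells, against 183 and 281 CPM in CTX cells, and zyd had 38.0 and 12.05 CPM, against 458 and 388 CPM. zyd is also on the cortex list, so its order says little about the name ENS. Of the 5, trol, the basement membrane proteoglycan perlecan, was higher in ENS than in AST and CTX, with 95.1 and 102 CPM in ENS cells, against 1 UMI and 0 UMIs in AST cells and 0 UMIs in CTX cells of both libraries. Cells labelled SUR had 339 and 92.3 CPM of trol. A count of 0 does not show absence, since 3 UMIs would be only 10.2 CPM in MeOH and 10.3 CPM in fresh CTX cells. ENS cells are therefore called here cells labelled ENS, and are described by their leading genes.

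The lists also bear on other cells that could hide in these labels. The 13 neuron markers summed to 1070.0 CPM in MeOH glia and 489 CPM in fresh glia, against 10082.5 and 6455 CPM in numbered clusters, that is 10.6% and 7.58% of the neuronal level. Each marker stood at 2.67% to 44.6% of its numbered level in MeOH glia and at 0% to 52.8% in fresh glia, with Syx1A the highest in both. UMIs of at least 3 neuron markers were found in 8 of 20 MeOH and 3 of 19 fresh AST cells, in 11 of 36 and 8 of 35 ENS cells, and in 19 of 47 and 10 of 23 CTX cells. Doublets were not called here. Without the cells that hold 3 or more of these markers, all 55 genes named below by rank kept their call. These genes were picked for large ratios in the same cells, so keeping the call says little about mixed cells. The 11 surface markers summed to 367 CPM in MeOH glia and 224 CPM in fresh glia, against 1595 and 1368 CPM in the cells labelled SUR. The hemocyte genes NimC1 and Pxn had 0 UMIs in glia of both libraries, while Hml had 0 UMIs in MeOH and 1 UMI in fresh glia. Of the 10 hemocyte genes, 6 were at 0 in MeOH glia and 5 in fresh glia, and the sums of 1698 and 1506 CPM came largely from the ferritin gene Fer1HCH, at 2777 and 2773 CPM in CTX cells. Of the 7 fat body genes, 6 were at 0 in glia of both libraries, the exception being apolpp.

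Summed and set against the numbered clusters, the glia had higher levels of Ama, ImpE1, Obp44a and Npc2a. They had lower levels of Nlg3 and of the summed neuron markers, fne among them. A gene was considered when its mean over both sides reached 50 CPM in both libraries, and called when log2((CPM + 10)/(CPM + 10)) passed 1, that is 2 fold on that scale, the same way in both. A gene below 50 CPM on 1 side was considered only where the other side was above 50 CPM. For such a gene the filter fixed the direction of the ratio. Of 2269 genes considered, 245 were called higher in glia (10.8%) and 344 lower (15.2%). This scale understates the change of low genes, and the median ratio over all considered genes was -0.20 in the MeOH library and -0.16 in the fresh library.

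**Figure D2:**
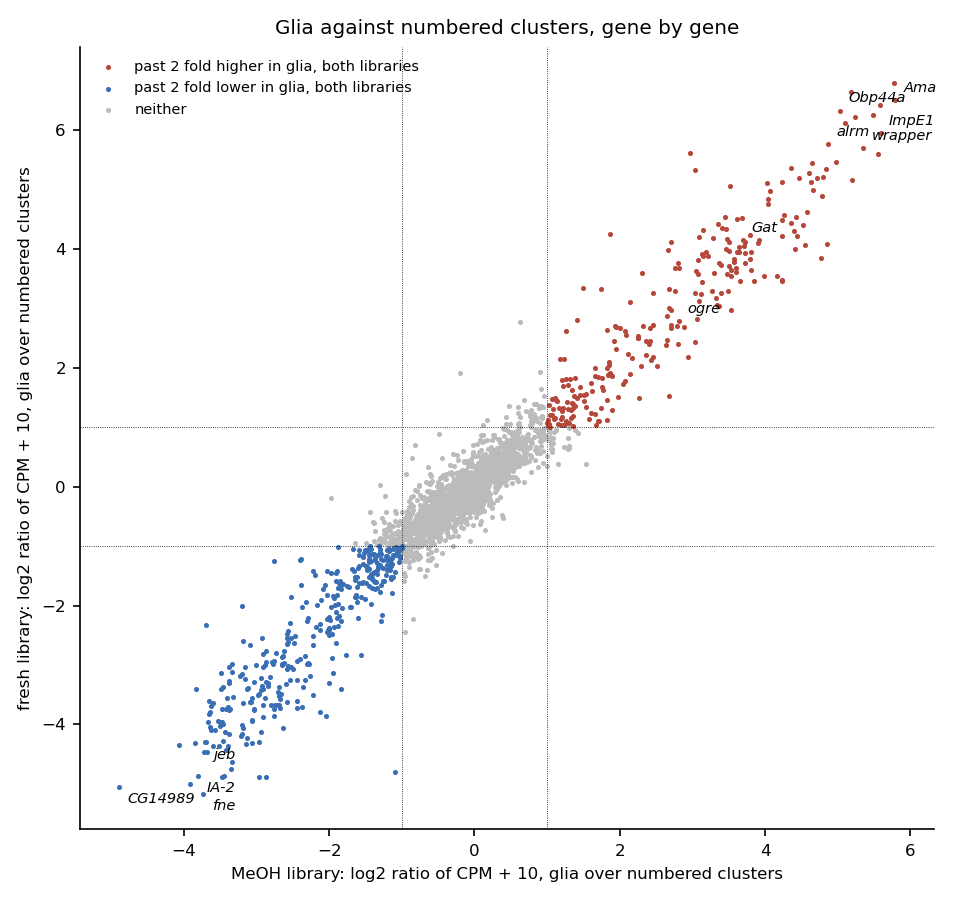
Each point is a considered gene, with its log2 ratio of CPM + 10 in glia over numbered clusters in the MeOH library on the x axis and in the fresh library on the y axis. Dotted lines mark a ratio of 1 in either direction; 245 genes lie beyond it on the higher side and 344 on the lower side in both libraries, with Ama at the upper right and CG14989 at the lower left.

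Ama, a secreted immunoglobulin protein that binds the adhesion protein Neurotactin, led the higher genes. Glia had 2558 CPM in the MeOH library and 3138 CPM in the fresh library, against 36.4 and 24.9 CPM in the numbered clusters, for log2 ratios of 5.79 and 6.50. The glial UMIs of Ama were spread over 78 of 103 MeOH and 54 of 77 fresh cells. At 2000 UMIs per cell, 70.9% of MeOH and 67.5% of fresh glia held an Ama UMI, against 6.95% and 4.82% of numbered cells.

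The next genes in that order were CG9686, ImpE1, CG32032, CG30197, Npc2a, wrapper, Obp99a, CG4409, CG11425, CG31676, Obp44a, CG14275, alrm and CG1537, whose ratios lay between 4.84 and 6.79. ImpE1, a gene first known as inducible by ecdysone, had 1137 CPM in MeOH and 814 CPM in fresh glia, against 13.8 and 3.43 CPM in numbered clusters. Obp44a, of the odorant-binding protein family, had 28242 and 14592 CPM in glia, against 856 and 173 CPM in numbered clusters. Obp99a, of the same family, had 14220.3 and 8576 CPM in glia, against 366 and 105 CPM. The most that 1 cell held of the glial UMIs of any of these genes was 24.3%, for CG30197 in the fresh library. Of the 15 genes, 14 were higher in glia than in numbered cells in each of the 7 lines of the MeOH library, and CG14275 was higher in 6 of 7. The lines make up the MeOH sums by which the genes were ranked, so they are no separate support.

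The lower genes named by the same rule were CG14989, CR45223, bru3, Nlg3, IA-2, fne, CG2269, jeb, eEF1alpha2 and CanB. The neuroligin gene Nlg3 had 3 UMIs in MeOH and 1 UMI in fresh glia, against 204 and 213 CPM in numbered clusters. The ELAV-family RNA-binding gene fne had 459.7 CPM in MeOH and 79.5 CPM in fresh glia, against 6225 and 3192 CPM in numbered clusters, and 1 fresh cell held 51.5% of its glial UMIs. CG14989 had 75.3 and 47.0 CPM in glia, against 2516 and 1869 CPM, with log2 ratios of -4.89 and -5.04. All 10 were lower in glia in each of the 7 lines, whose cells also entered the ranking. The residual glial level of these genes stands beside the neuron marker level of 10.6% and 7.58% given above. The 2 are not separate, because fne is also a neuron marker. It gives 6225 of the 10082.5 CPM of these markers in MeOH numbered clusters and 3192 of 6455 CPM in fresh ones.

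The lipid handling genes that reached the filter were high in glia. Of 22 listed genes 8 were considered, and all 8 were called higher in glia, with median log2 ratios of 4.20 in the MeOH library and 3.87 in the fresh library. Of all considered genes, 10.8% were called higher. Npc2a, apolpp and Cyp4g15 lay below 50 CPM in the numbered clusters, so the filter fixed their direction. The same holds in the lists that follow for members below 50 CPM on 1 side. Npc2a, a sterol-binding protein, had 2377 CPM in MeOH and 2062 CPM in fresh glia, against 43.2 and 17.2 CPM in numbered clusters. The lipophorin precursor apolpp had 1555 and 843 CPM, against 46.3 and 13.2 CPM, and the fatty acid binding protein fabp 15872 and 10706 CPM, against 878 and 915 CPM. Cyp4g15, the apolipoprotein D homologue GLaz, the desaturase Desat1 and the receptor LRP1 were the remaining genes called. Desat1 and LRP1 were the mildest, at 1.35 and 1.27 in the MeOH library.

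Transmitter uptake and recycling had 8 of 13 genes considered, of which 5 were called higher and 1 lower. The higher ones were Gs2, Eaat1, Gat, the GABA transaminase Gabat and the glutamate dehydrogenase Gdh. Gabat had 596 CPM in MeOH and 475 CPM in fresh glia, against 115.4 and 163 CPM in numbered clusters, and Gdh passed 2 fold only narrowly in the MeOH library with a ratio of 1.02. Eaat2, the taurine and aspartate transporter, was the lower one, at 6.41 and 8.43 CPM in glia.

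Fate factors and the Notch pathway had 7 of 15 genes considered, and 6 were called higher. The Ets factor pnt had 287 CPM in MeOH and 219 CPM in fresh glia, against 12.4 and 5.07 CPM in numbered clusters. The Notch receptor N had 455 and 366 CPM, against 31.8 and 11.0 CPM. The others called were repo and the Notch targets E(spl)mbeta-HLH, E(spl)m3-HLH and E(spl)m7-HLH.

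Ion and water genes had 9 of 21 members considered, 6 called higher and 2 lower. The pump subunits nrv1 and nrv2, the exchanger zyd, the aquaporin Prip, the carbonic anhydrase CAH1 and the chloride channel ClC-c were higher. The neuronal pump subunit nrv3 was lower, at 175 CPM in MeOH and 33.7 CPM in fresh glia, against 2036 and 1285 CPM in numbered clusters. Among the innexins, which form gap junctions, 3 of 8 were considered. ogre had 1603 and 740 CPM in glia, against 218 and 99.3 CPM in numbered clusters, and Inx2 was also called higher. shakB was called lower, at 4 UMIs in MeOH and 1 UMI in fresh glia, against 193 and 134 CPM.

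The remaining lists had fewer calls, or calls in both directions. Of the redox genes 4 of 11 considered were called higher (GstS1, GstE12, MtnA and GstD1) and none lower. Of the cell cycle genes 3 of 5 considered were called higher, namely PCNA, Cdk1 and the phosphatase stg. Adhesion genes gave 3 higher (Ama, wrapper and Fas1) and 4 lower (klg, tutl, Con and CadN) of 12 considered. Of the guidance and growth factor genes, 1 of 8 considered was called higher and 3 lower (jeb, Alk and Sema1a). The higher one was the TGF-beta family ligand myo, at 799 CPM in MeOH and 636 CPM in fresh glia, against 22.5 and 8.57 CPM in numbered clusters. Glycolysis gave 0 higher and 2 lower (Hex-A and Ald) of 10 considered, and 0 of 9 mitochondrially encoded genes and 0 of 9 heat shock genes were called higher, while Hsp67Bc of the heat shock list was called lower. The engulfment list gave drpr and the scavenger receptor crq as higher, of 5 considered.

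**Figure D3:**
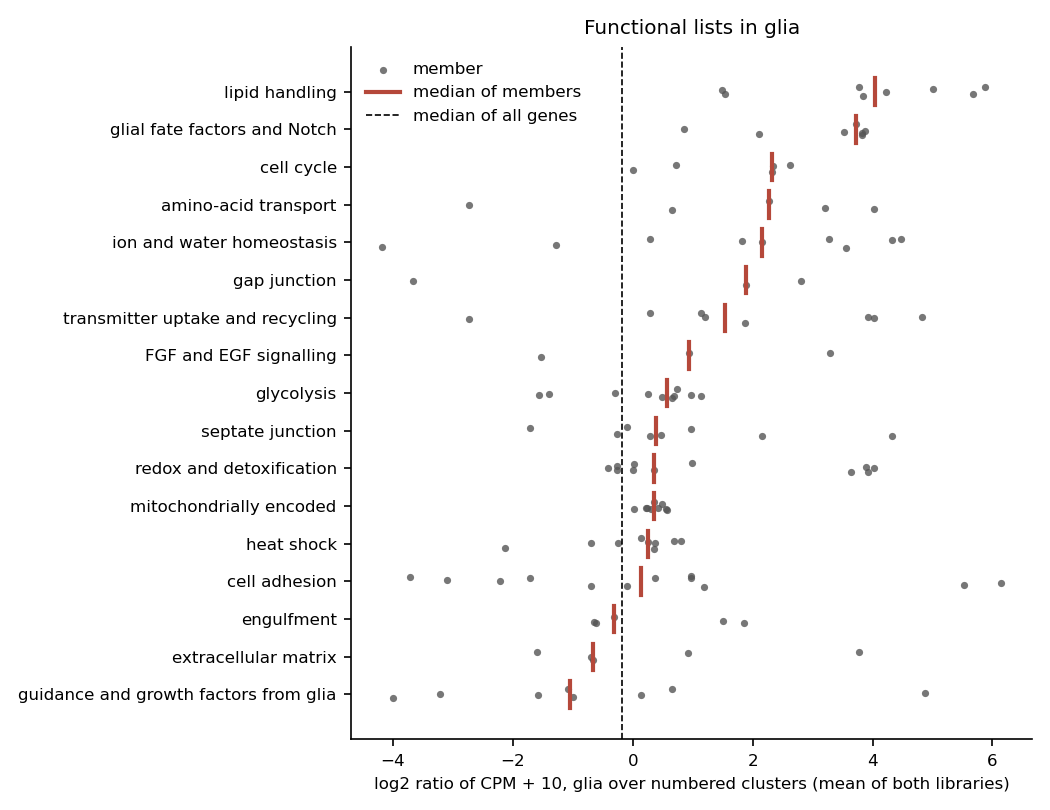
Log2 ratio of CPM + 10 in glia over numbered clusters, averaged over the 2 libraries, for each considered member of 17 functional lists (grey points), with the median of the members in red and the median of all considered genes as a dashed line. Lipid handling and the fate and Notch genes have the highest medians, and the guidance and growth factor list the lowest.

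AST cells were marked by few genes of their own. Against ENS and CTX together, 24 of 2054 considered genes were called higher (1.17%) and 96 lower (4.67%). The 10 leading genes were CG14598, ImpE1, Con, nrv1, CR44997, CG42346, Ugt58Fa, CG14275, CG18135 and Argk. CG14598 had 593 CPM in MeOH and 1199.7 CPM in fresh AST cells, against 7 UMIs and 2 UMIs in ENS and CTX together, and was found in 9 of 20 MeOH and 10 of 19 fresh AST cells. ImpE1 had 3458 and 2632 CPM in AST cells, against 254 and 212 CPM in the other labels, and was found in 19 of 20 MeOH and 16 of 19 fresh AST cells. nrv1, a beta subunit of the sodium pump, had 924 and 798 CPM, against 153 and 125 CPM. The arginine kinase gene Argk, an enzyme of energy buffering, had 6195 and 11261 CPM, against 2014 and 3434 CPM. These genes were not all particular to AST: among 36 deposited labels with at least 10 cells, 8 of the 10 were highest in AST in both libraries, while the adhesion gene Con was higher in numbered clusters, with 2112 CPM in MeOH cells of cluster 32 and 575 CPM in fresh cells of cluster 35, and Ugt58Fa was higher in SUR in the MeOH library.

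AST cells varied among themselves in the transmitter genes. Eaat1 was found in 20 of 20 MeOH and 14 of 19 fresh AST cells, alrm in 18 and 16, Gs2 in 14 and 10, and Gat in 8 and 7. Per cell, alrm ran from 0 through a median of 453 to 3307 CPM in the MeOH library and from 0 through 499.8 to 4163 CPM in the fresh library. In the fresh library 1 cell held 46.2% of the alrm UMIs of AST. Ama was found in every AST cell, with at least 365 CPM in each MeOH and at least 3423 CPM in each fresh AST cell.

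By list, AST had few calls. Lipid genes gave 0 higher and 3 lower (apolpp, Cyp4g15 and Obp44a) of 9 considered. The Notch and fate list gave 0 higher and 3 lower of 9, and the guidance list 1 higher, robo2, and 3 lower (Ilp6, myo and sli) of 7. The laminin genes wb and LanB1 were called higher of 5 matrix genes. wb had 139 CPM in MeOH and 232 CPM in fresh AST cells, 82.4 and 18.1 CPM in ENS cells, and 20.4 and 0 CPM in CTX cells. In the MeOH library wb was found in 2 of 20 AST cells. Against ENS alone, 52 of 2086 considered genes were higher in AST (2.49%) and 56 lower (2.68%). Against CTX alone, 92 of 2008 were higher in AST (4.58%) and 178 lower (8.86%). Of 8 astrocyte markers considered, 1 (Eaat1) was called higher in AST than in ENS and CTX together and 0 lower, and against CTX alone 0 were called higher and 2 lower (Gat and GLaz).

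**Figure D4:**
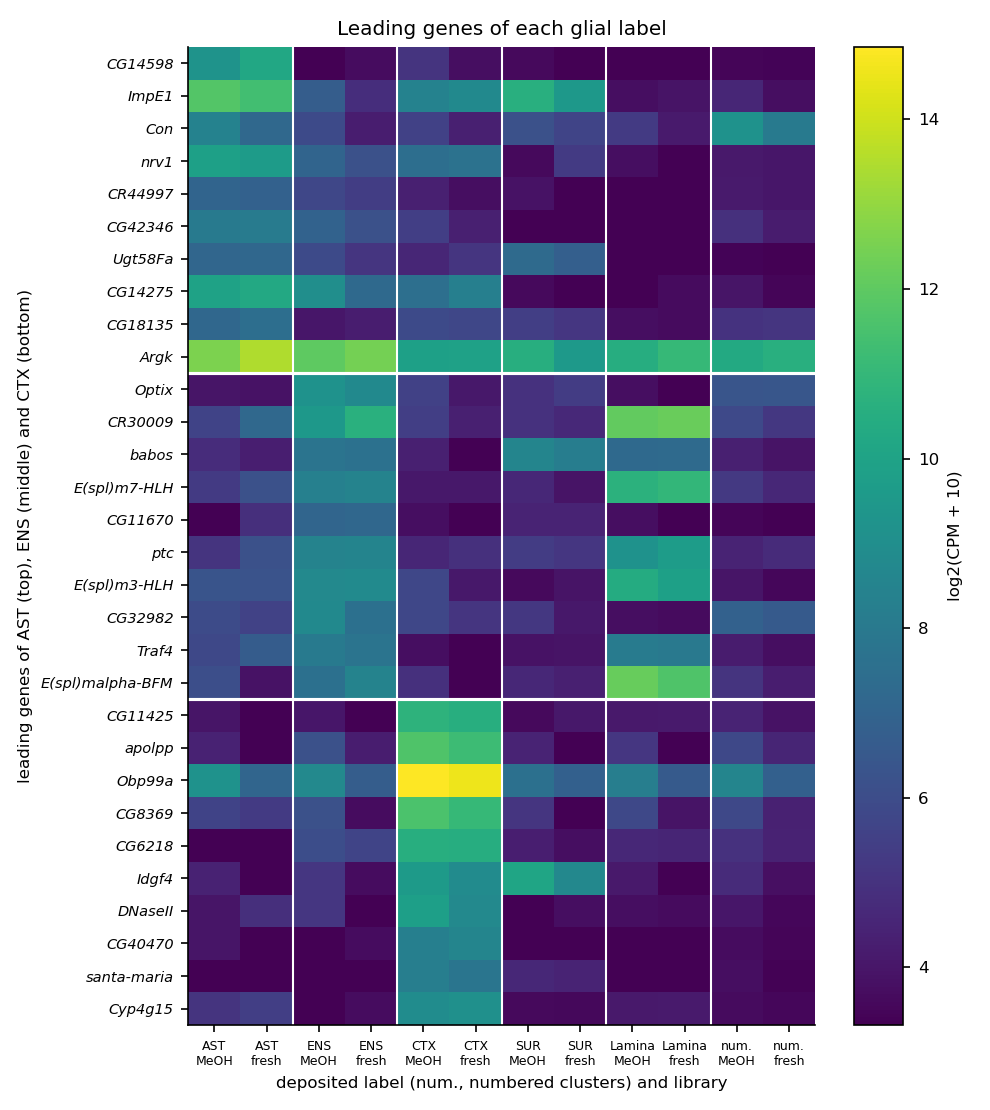
Level as log2(CPM + 10) of the 10 leading genes of AST (top), ENS (middle) and CTX (bottom) in the 3 glial labels, in SUR and Lamina cells and in the numbered clusters, with MeOH left of fresh in each pair. CTX genes are brightest in CTX apart from Idgf4 in MeOH SUR cells, whereas several ENS genes, such as CR30009 and E(spl)malpha-BFM, are brighter in Lamina.

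Cells labelled ENS carried repo with a homeobox gene, Notch targets and a Hedgehog receptor. Against AST and CTX together, 84 of 2095 considered genes were called higher (4.01%) and 154 lower (7.35%), and with totals that leave out mitochondrial and ribosomal genes 157 were higher and 186 lower. That scaling moved the median over the same genes by 0.09 in both libraries. The Six-family homeobox gene Optix led them, with 583 CPM in the MeOH library (470 to 715) and 437 CPM in the fresh library (368 to 514), against 12 UMIs and 3 UMIs in AST and CTX together. It was found in 24 of 36 MeOH and 22 of 35 fresh ENS cells. At 2000 UMIs per cell, Optix was seen in 50% and 60% of ENS cells, against 5.96% and 5.93% of numbered cells. The highest numbered cluster for Optix was cluster 32, with 498 CPM in the MeOH library and 533 CPM in the fresh library, so in the fresh library ENS was not the highest label.

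The other leading genes of ENS were CR30009, babos, E(spl)m7-HLH, CG11670, ptc, E(spl)m3-HLH, CG32982, Traf4 and E(spl)malpha-BFM. The Notch target E(spl)m7-HLH had 311 CPM in MeOH and 352 CPM in fresh ENS cells, against 7 UMIs and 15 UMIs in AST and CTX together. The Hedgehog receptor ptc had 342 and 358 CPM, against 17.1 and 38.1 CPM, although 1 MeOH cell held 44.4% of its UMIs. Of the 10 leading genes, CG11670 alone was highest in ENS among the 36 labels in both libraries, at 127 CPM in MeOH and 133 CPM in fresh cells. The Lamina label was higher for 6 of them in both libraries. E(spl)malpha-BFM, for example, had 184 and 343 CPM in ENS cells, with 48.2% of the fresh UMIs in 1 cell, and 4671 and 3277 CPM in Lamina cells, and CR30009 691 and 1599 CPM in ENS cells and 4269 and 4701 CPM in Lamina cells.

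Of 11 Notch and fate genes considered, 8 were called higher in ENS and 0 lower, with median ratios of 1.94 in the MeOH library and 1.73 in the fresh library, beside 0.19 and 0.12 over all genes. E(spl)m7-HLH and E(spl)malpha-BFM lay below 50 CPM in AST and CTX together in both libraries, and E(spl)m3-HLH in the fresh library. There the filter fixed the direction. These genes are also leading genes of ENS named above, so the list is no separate support. Of all considered genes, 4.01% were called higher. N had 837 CPM in MeOH and 533 CPM in fresh ENS cells, 540.5 and 416 CPM in AST cells, and 200.3 and 141 CPM in CTX cells. pnt had 653 and 376 CPM in ENS cells, 209 and 164 CPM in AST cells, and 136 and 78.9 CPM in CTX cells. The glial determinant gcm was among the 8, at 120.5 and 316 CPM in ENS cells, but it was found in 4 of 36 MeOH cells, and 1 of them held 57.9% of its UMIs. In the fresh library gcm was found in 15 of 35 ENS cells. These counts are not matched for depth, as the median was 3064.5 UMIs per MeOH and 7711 per fresh ENS cell. Optix and gcm occurred together in 0 of 36 MeOH and 8 of 35 fresh ENS cells, and Optix and wrapper in 5 of 36 and 8 of 35.

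The receptor tyrosine kinase feedback genes sty and aos were higher in ENS, of 6 FGF and EGF genes considered. sty had 558 and 416 CPM in ENS cells, 249.9 and 223 CPM in AST cells, and 74.7 and 82.4 CPM in CTX cells. The heparan sulphate proteoglycan dally and the matrix protein SPARC were higher of 5 matrix genes, with dally at 450.2 and 367 CPM in ENS cells, 151 and 179 CPM in AST cells, and 84.9 and 99.5 CPM in CTX cells. The guidance list gave 2 higher (NetB and fra) and 2 lower (Ilp6 and myo) of 8. In the opposite direction, 6 of 9 lipid genes, 6 of 8 ion and water genes and 4 of 7 transmitter genes were called lower in ENS. Gdh was the transmitter gene called higher, with 342 and 428 CPM in ENS cells, 116 and 169 CPM in AST cells, and 119 and 151 CPM in CTX cells. Against CTX alone, 206 of 2060 considered genes were called higher in ENS (10%) and 221 lower (10.7%).

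Cell cycle transcripts were higher in ENS than in CTX cells. The 18 listed genes summed to 2739 CPM in MeOH and 3195 CPM in fresh ENS cells, 2069 and 2080.1 CPM in AST cells, and 784 and 645 CPM in CTX cells, against 739 and 622 CPM in numbered clusters. stg, the phosphatase that lets cells enter mitosis, had 406 CPM in MeOH and 247 CPM in fresh ENS cells, 139 and 87.1 CPM in AST cells, and 20.4 and 27.5 CPM in CTX cells. Of 8 cell cycle genes considered, 2 (stg and the histone His2Av) were called higher in ENS and 0 lower, and in CTX 6 of 7 were called lower. The replication clamp PCNA was called in neither contrast, with 285 and 443 CPM in ENS cells, 232 and 271 CPM in AST cells, and 190.1 and 89.2 CPM in CTX cells.

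CTX cells had more apolpp, CG11425, santa-maria and Obp44a than AST and ENS cells. Against AST and ENS together, 202 of 2074 considered genes were called higher (9.74%) and 142 lower (6.85%), or 58.7% of calls higher. With totals that leave out mitochondrial and ribosomal genes the split was 218 higher and 317 lower, or 40.7% higher, and the median over the same genes moved by -0.20 in the MeOH library and -0.14 in the fresh library. Ribosomal transcripts took 24.995% of MeOH and 28.2% of fresh CTX UMIs, against 35.7% and 34.3% in AST and 33.3% and 35.0% in ENS. The leading genes were CG11425, apolpp, Obp99a, CG8369, CG6218, Idgf4, DNaseII, CG40470, santa-maria and Cyp4g15. apolpp had 3256 CPM in MeOH and 2392 CPM in fresh CTX cells, against 12 UMIs and 3 UMIs in AST and ENS together. CG11425 had 1725 and 1486 CPM in CTX cells, against 2 UMIs in MeOH and 0 UMIs in fresh cells of the other labels. Set against the level that 3 UMIs over the other labels together would give, CG11425 was at least 267-fold higher in fresh CTX cells. The scavenger receptor gene santa-maria had 295 and 213 CPM in CTX cells and 0 UMIs in the other labels of both libraries, and was at least 32.5-fold higher in MeOH and at least 38.2-fold higher in fresh CTX cells. Among the 36 labels, 9 of the 10 were highest in CTX in both libraries, and the chitinase-like growth factor Idgf4 was higher in SUR in the MeOH library.

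Of 11 lipid genes considered, 7 were called higher in CTX and 0 lower (apolpp, Cyp4g15, Obp44a, NLaz, GLaz, Lsd-2 and fabp). Of all considered genes, 9.74% were called higher. The leading genes apolpp and Cyp4g15 lay below 50 CPM in AST and ENS together, so the filter fixed their direction. Obp44a had 57832 CPM in MeOH and 36759 CPM in fresh CTX cells, 1209 and 4586 CPM in AST cells, and 2473 and 1373 CPM in ENS cells. The storage droplet protein Lsd-2 had 197 and 151 CPM in CTX cells, 81.4 and 72.6 CPM in AST cells, and 31.7 and 45.2 CPM in ENS cells. The amino acid transporters path and mnd were called higher of 4. path had 998 and 903 CPM in CTX cells, 52.3 and 82.2 CPM in AST cells, and 178 and 126 CPM in ENS cells, while SUR cells had 2507 and 1412 CPM. Of 8 astrocyte markers considered, 4 were called higher in CTX than in AST and ENS together (Gat, GLaz, CG31235 and Gs2) and htl was called lower. Of 7 transmitter genes, Gat, Gabat and Gs2 were called higher in CTX and Got2 lower, but the call of Gs2 in the MeOH library rests on the cell named above, without which CTX lies below AST.

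Of 8 ion and water genes considered, CAH1, zyd and ClC-c were called higher in CTX and nrv2 lower. CAH1 had 601 and 807 CPM in CTX cells, against at most 25.4 CPM in AST or ENS cells. SUR cells had more of it, with 2459 and 1404 CPM. MtnA, a metal-binding metallothionein, had 1117 and 1294 CPM in CTX cells, 75.6 and 14.5 CPM in AST cells, and 50.7 and 15.1 CPM in ENS cells. The growth factor genes Ilp6, spz and myo were called higher of 8, and fra lower. Ilp6, an insulin-like peptide, had 177 and 213 CPM in CTX cells, 40.7 and 38.7 CPM in AST cells, and 19.0 and 9.03 CPM in ENS cells. The trehalose-cleaving enzyme Treh, the 1 gene considered of 13 for sugar and organic acid transport, had 234 and 158 CPM in CTX cells, 75.6 and 24.2 CPM in AST cells, and 0 and 27.1 CPM in ENS cells.

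In the lower direction, 5 of 6 FGF and EGF genes, 5 of 8 Notch and fate genes and 4 of 5 matrix genes were called in CTX. The FGF receptor htl had 50.9 CPM in MeOH and 27.5 CPM in fresh CTX cells, 75.6 and 106 CPM in AST cells, and 197 and 129 CPM in ENS cells. Its adaptor stumps had 34.0 and 13.7 CPM in CTX cells, 145 and 91.9 CPM in AST cells, and 178 and 96.4 CPM in ENS cells.

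Within CTX, alrm and wrapper were mostly found in different cells. In the MeOH library 13 cells held alrm without wrapper, 29 held wrapper without alrm, 4 held both and 1 held neither. In the fresh library 9 cells held alrm without wrapper, 8 held wrapper without alrm, 5 held both and 1 held neither. Median depth was 4644 UMIs in MeOH and 12125 UMIs in fresh cells with alrm without wrapper, against 5096 and 10357 UMIs in cells with wrapper without alrm. In AST, by contrast, 4 of 20 MeOH and 5 of 19 fresh cells held both, and 0 cells of either library held wrapper without alrm.

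**Figure D5:**
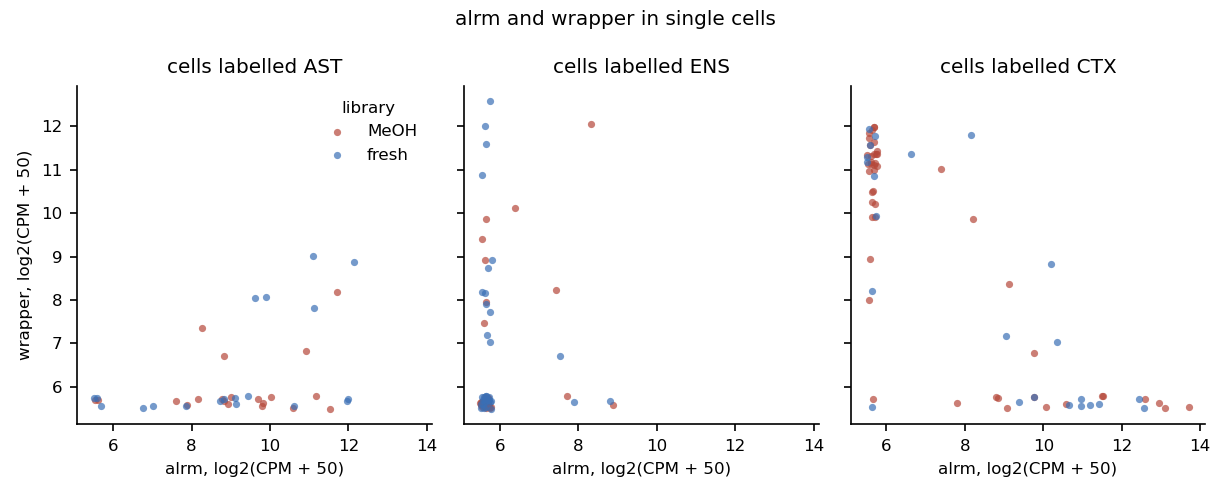
Each point is a cell, with alrm on the x axis and wrapper on the y axis as log2(CPM + 50), slightly jittered, in panels for AST, ENS and CTX and in a colour per library. CTX cells lie along both axes, with 9 of 70 cells holding both transcripts, while AST cells lie along the alrm axis and most ENS cells hold neither.

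Some genes that did not enter this division differed along it, and others did not. The division was made after the values were seen, so the values are a description of these cells. Gs2 had 879 CPM in MeOH and 1736 CPM in fresh CTX cells with alrm without wrapper, against 1 UMI and 0 UMIs in cells with wrapper without alrm. Gat had 924 and 679 CPM in cells with alrm without wrapper, against 80.8 and 97.6 CPM. The lipid phosphatase wun2, a gene of the astrocyte list, had 298 and 302 CPM, against 1 UMI in each library. The beta-alanyl amine synthase ebony, e, had 74.5 and 176 CPM, against 1 UMI and 0 UMIs, and it had 0 UMIs in AST cells of both libraries. Other genes of the astrocyte list were less divided. Eaat1 had 298 and 319 CPM in cells with alrm without wrapper, against 162 and 141 CPM, with overlapping intervals in both libraries. GLaz had 387 and 109 CPM, against 253 and 228 CPM, so its order differed between the libraries.

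Other genes ran the other way, among them apolpp and Obp99a, leading genes of CTX in these same cells, and zyd of the cortex list. apolpp had 179 CPM in MeOH and 0 UMIs in fresh cells with alrm without wrapper, against 4844 and 5640 CPM in cells with wrapper without alrm. Obp99a had 984 and 151 CPM, against 41895 and 58337 CPM, and Npc2a 268 CPM and 2 UMIs, against 4348 and 5813 CPM. zyd had 104 and 75.5 CPM, against 571 and 705 CPM. Cyp4g15 differed less, with 209 and 495 CPM, against 550 and 737 CPM. The order of nrv2, also of the cortex list, differed between the libraries, with 104 and 41.9 CPM, against 97.0 and 130 CPM. Some genes were present in both sets of cells, such as myo with 820 and 1266 CPM in cells with alrm without wrapper and 1573 and 1779 CPM in cells with wrapper without alrm. repo had 4 UMIs in 13 MeOH cells and 11 UMIs in 9 fresh cells with alrm without wrapper, against 34 UMIs in 29 MeOH and 24 UMIs in 8 fresh cells with wrapper without alrm. CG8369, a leading gene of CTX, went different ways in the 2 libraries, with 3562 and 58.7 CPM in cells with alrm without wrapper, against 2845 and 4078 CPM in cells with wrapper without alrm. The neuron gene fne, beside this, had 745 and 302 CPM in cells with alrm without wrapper, against 275 and 152 CPM in cells with wrapper without alrm. The neuron gene elav had 417 CPM in MeOH and 83.9 CPM in fresh cells with alrm without wrapper, against 59.3 and 75.9 CPM. Its MeOH UMIs there lay in 5 of 13 cells, and numbered clusters had 776 and 546 CPM of elav. The part of neuron transcripts in the division was not tested.

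The levels summed over CTX are averages over these sets of cells. Of CTX cells, 33 of 47 in the MeOH library and 13 of 23 in the fresh library held a wrapper UMI, and 17 of 47 and 14 of 23 held an alrm UMI.

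The 7 lines of the MeOH library each gave 9 to 24 glia, from 2.34% of listed cells in DGRP-502 to 5.17% in DGRP-639, with overlapping exact 95% intervals (1.08 to 4.40 and 3.18 to 7.87). Summed over glia, repo ran from 112 CPM in DGRP-45 through a median of 177 to 207 CPM in DGRP-382. wrapper ran from 470.3 CPM in DGRP-136 to 1077 CPM in DGRP-45, and Ama from 2125 CPM in DGRP-409 to 3056 CPM in DGRP-639. The genes alrm and Gat varied more. alrm ran from 121 CPM in DGRP-382 to 1530.3 CPM in DGRP-502, and Gat from 11.2 CPM, a single UMI, in DGRP-45 to 529.7 CPM in DGRP-502. Every line was higher in glia than in its own numbered cells for each of the 6 core markers, the highest numbered value being 30.3 CPM for Gs2 in DGRP-502. The lines differ in how many AST, ENS and CTX cells they hold, from 1 to 10 of a label, and that was not separated from the line.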

How the data were processed

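Single-cell libraries of larval brains in the third instar were read as the UMI count per gene and barcode that the authors deposited, made with Cell Ranger against dm6 per the submitters' processing notes, which also name Seurat; versions are not given in the sources used here. The deposited metadata table gives annotation, line, UMI count, the authors' percent of mitochondrial UMIs and embedding coordinates (a score, not used). Counts were summed per label and library with Python 3.11.15, numpy 2.4.6, pandas 2.3.3 and scipy 1.17.1, scaled to CPM and compared on log2(CPM + 10) with the filter of 50 CPM given above. Shares of cells stated at 2000 UMIs per cell were taken after thinning each cell to that depth, which every listed cell reached. Counts of cells in which a gene was found, alone or with others, used all UMIs and are not matched for depth. Genes were named by rank of the smaller log2 ratio of both libraries (15 higher and 10 lower for glia, 10 higher per label), leaving out a gene with over 50% of its UMIs in 1 cell of the higher side, besides the core markers and 18 functional lists. Members and lists were chosen with earlier results of these data known. All 326 list symbols were in the files, 16 under an older name. Gene positions are from the Ensembl annotation of dm6. Calls were tested on simulated data. These were Poisson sums at the glial and numbered totals, with no spread between cells. They do not cover the contrasts between labels, nor genes held mostly by 1 cell. No doublet caller was run, and with 1 library per group no test between libraries or labels was made. Alternatives changed the CPM total, cell weight, pseudocount, filter, numbered clusters used, mixed cells and deepest cells.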

Additional observations from a re-analysis of the deposited data

Results flagged for a closer look

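Among the 7 lines of the MeOH library, 2 values lay far from the others, as chance alone makes about 1 in 20 such groups do. The Dixon cutoff, a gap over range of 0.568, was applied to the share of glia, their median depth and several gene levels. Those genes were repo, alrm, Gs2, Eaat1, Gat, wrapper, apolpp, Ama, ogre, zyd, Cyp4g15 and nrv2. Only Gs2 and ogre passed it, and with that many measures a flag can arise by chance. Gs2 had 3637 CPM in the glia of DGRP-409, where the median line had 286 CPM, and 189 of its 255 UMIs came from 1 CTX cell, without which the line had 1293 CPM. The innexin ogre had 2902 CPM in the glia of DGRP-382, with 95 of 168 UMIs in 1 CTX cell and 1747 CPM without it.

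In 8 cases a gene passed 2 fold in opposite directions in the 2 libraries, and the difference between libraries was not tested. In AST over ENS and CTX, the log2 ratio was -1.27 in the MeOH library and 1.20 in the fresh library for the amino acid transporter gene gb, -1.021 and 1.0004 for Appl, -1.12 and 1.29 for Invadolysin, -4.16 and 3.83 for Npc2b, and -2.51 and 1.02 for CG6357. In ENS over AST and CTX it was 3.303 and -3.51 for Cpr78E, with 95.8% of the MeOH UMIs of ENS in 1 cell. In CTX over AST and ENS it was 1.11 and -1.26 for MP1, and 4.24 and -2.25 for Npc2b. Npc2b, a relative of the sterol-binding Npc2a, had 407 CPM in MeOH and 20.6 CPM in fresh CTX cells, and 5.81 and 339 CPM in AST cells.

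Barcodes of the matrices that the metadata table does not list also held the 6 core markers above the level of the numbered clusters. The 1192 MeOH barcodes, of median depth 3094 UMIs, had 15.5 CPM of repo, 84.5 of alrm, 86.5 of Gs2, 59.7 of Eaat1, 31.4 of Gat and 48.3 of wrapper. The 76 fresh barcodes, of median depth 40565 UMIs, had 6.31 CPM of repo, 20.1 of alrm, 19.8 of Gs2, 39.3 of Eaat1, 3.44 of Gat and 6.03 of wrapper.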

How the results depend on the processing

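For the 55 genes named by rank, which were picked for large ratios, all 465 combinations of gene and alternative kept the call. The medians of the functional lists were less stable. Of the combinations of list and alternative, 72 moved and 80 stayed the same. Without the deepest cell of each label 3 list medians moved and 14 did not, and with no filter 15 moved and 2 did not. Counts depended on the filter: at 20 CPM, 467 genes were higher and 666 lower in glia and 138 higher in ENS, and with no filter 710 were higher and 957 lower in glia, 48 higher in AST, 176 in ENS and 400 in CTX. Totals without mitochondrial and ribosomal genes gave 401 genes higher and 390 lower in glia, against 245 and 344 with all genes in the totals, 41 higher and 130 lower in AST, against 24 and 96, and 157 higher and 186 lower in ENS, against 84 and 154, shifting the median of the same genes for glia by 0.16 in the MeOH library and 0.19 in the fresh library. A pseudocount of 50 gave 44 genes higher in ENS. Without glia holding 3 or more neuron markers, 127 genes were higher in ENS, and the MeOH shares were 0.448% for AST, 1.05% for CTX and 2.43% for all 3 labels, with fresh shares of 0.560% for CTX and 2.41% for all 3. The median over the engulfment list, -0.32 over both libraries, was 0.79 without mitochondrial and ribosomal totals, 1.503 at 20 CPM and 1.37 with no filter. That of the matrix list, -0.67, was 0.42 with equal weight per cell, 1.11 without those totals, 1.004 at 20 CPM and 0.84 with no filter. Apart from filters, which change the genes considered, the cause was not tested. Depth limits genes near 3 UMIs per label, 17.4 CPM in MeOH and 14.5 CPM in fresh AST cells. No paired analysis was possible because each group is 1 library. Apart from the Dixon cutoff that flagged 2 line values, no result comes from a test.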
